A study of Rattus norvegicus with 4 samples.

Results

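Dietary fat absorption and lipoprotein genes were examined in rat colon, as a list of 10 genes: Fabp1, Fabp2, Fabp6, Cd36, Apoa1, Apoa4, Apob, Apoc3, Mttp and Dgat1. The genes were chosen by these same arrays, with the log2 values of the mesenchymal stem cell transplantation (MSCT) group against the control group already known, so the differences between these groups describe the genes and were not tested for them. Values of a gene are given for control replicates 1 and 2 and then for MSCT replicates 1 and 2. Of the 10 genes, 8 had a value on all 4 arrays, out of 18350 measured transcripts and 6963 measured genes with a name. Fabp6 was blank on all 4 arrays, and Mttp had no row under its name. Expression was measured in colon RNA of 2 control rats and 2 MSCT rats, with 1 one-color NimbleGen array per rat. All were male Sprague Dawley rats, and colitis was induced in the study by instilling TNBS (trinitrobenzene sulfonic acid) dissolved in ethanol into the colon, a chemical injury that serves as a model of inflammatory bowel disease (IBD). The MSCT rats then received mesenchymal stem cells carrying green fluorescent protein through the tail vein. The study gave saline to its control group and names the control rats of the arrays IBD rats, whereas their sample descriptions call them normal, so whether the control group carried the TNBS injury cannot be settled here. The labels give no day for the arrays, and the study's Methods and Results give different days.

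Absorptive cells of the gut take up fatty acids and monoglycerides that are released from dietary fat in the lumen. Inside the cell, small fatty acid-binding proteins carry the fatty acids to the endoplasmic reticulum, where diacylglycerol acyltransferases build triglyceride. Microsomal triglyceride transfer protein, the product of Mttp, loads this triglyceride onto apolipoprotein B, and the particle leaves the cell as a chylomicron with apolipoproteins A-I, A-IV and C-III on its surface. This work belongs mainly to the small intestine, and the liver runs a related pathway for its own lipoproteins.

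The sequences before the transcription start sites of Fabp1, Fabp2 and Apoa4 are shown because these were the 3 listed genes with the largest gaps between the control arrays. They are the 250 bases before the start of each gene in RefSeq for the rat assembly GRCr8, printed 5′ to 3′ on the strand of the gene, at chr4:104749090-104749339 (plus strand) for Fabp1, chr2:213724379-213724628 (plus strand) for Fabp2 and chr8:55435529-55435778 (plus strand) for Apoa4. Capitals mark exact matches to any of 5 motifs searched on both strands, which were CAAAGTCCA for HNF4, AGGTCA for nuclear receptors, AGATAA for GATA factors, GTTAAT for HNF1 and TATAAA for the TATA box.
Fabp1: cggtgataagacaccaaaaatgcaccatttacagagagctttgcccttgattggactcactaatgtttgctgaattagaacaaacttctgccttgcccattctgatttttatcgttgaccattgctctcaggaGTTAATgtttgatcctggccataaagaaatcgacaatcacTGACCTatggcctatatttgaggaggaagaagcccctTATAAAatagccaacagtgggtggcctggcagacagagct
Fabp2: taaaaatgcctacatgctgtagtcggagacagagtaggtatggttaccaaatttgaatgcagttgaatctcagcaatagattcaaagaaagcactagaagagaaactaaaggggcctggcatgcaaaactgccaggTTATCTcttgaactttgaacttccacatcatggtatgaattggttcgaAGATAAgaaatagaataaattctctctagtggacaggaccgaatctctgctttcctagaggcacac
Apoa4: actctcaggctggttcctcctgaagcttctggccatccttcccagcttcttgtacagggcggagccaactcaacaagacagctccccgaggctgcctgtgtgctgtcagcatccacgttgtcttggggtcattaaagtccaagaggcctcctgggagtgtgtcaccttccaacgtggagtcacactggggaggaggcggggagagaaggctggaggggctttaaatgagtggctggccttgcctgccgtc
In Fabp1, the HNF1 letters began at position -117 from the start site, the nuclear receptor letters at -77 on the opposite strand and the TATA box at -40. In Fabp2, the GATA letters occurred at -114 on the opposite strand and at -66, and Apoa4 held no match. Promoters were available for 5 of the 10 genes. The 2 not printed, Fabp6 and Cd36, held the TATA letters on the opposite strand at -41 and -175. Among 33469 rat promoters of 300 bases (250 before and 50 after the start), the shares with a match were 0.391% for HNF4, 16.2% for the nuclear receptor letters, 11.6% for GATA, 7.45% for HNF1 and 14.2% for the TATA box. A match describes the letters and shows no binding.

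By group means, all 8 measured genes were higher in the MSCT group, where 8809 of the 18350 measured transcripts were. Fabp1 and Fabp2 stood out with log2 differences of 4.01 and 3.38. In 6 of the 8, both MSCT arrays lay above both control arrays, which was also the case for 21.3% of all measured transcripts. The study's screen asked for an unadjusted p under 0.05 and a change of more than 2-fold, and with limma 3 of the 8 genes (Fabp1, Fabp2 and Apob) were past it, where 2.12% of all measured transcripts were past it on the higher side. By the methods' t-test (the one-way analysis of variance of the study's statistics section, applied to 2 groups) 1 of the 8, Fabp1, was past the screen, where 1.04% of all measured transcripts were on the higher side. As the genes were chosen with these values known, nothing can be read from these counts. The median difference of the 8 genes was 1.02 on the log2 scale, against -0.02 over all measured transcripts. The summed intensity of the 8 genes was 7848 and 11583 in the control rats, compared with 17545 and 17507 in the MSCT rats. In RNA of whole tissue, more cells of a type and more RNA per cell cannot be told apart.

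**Figure D1:**
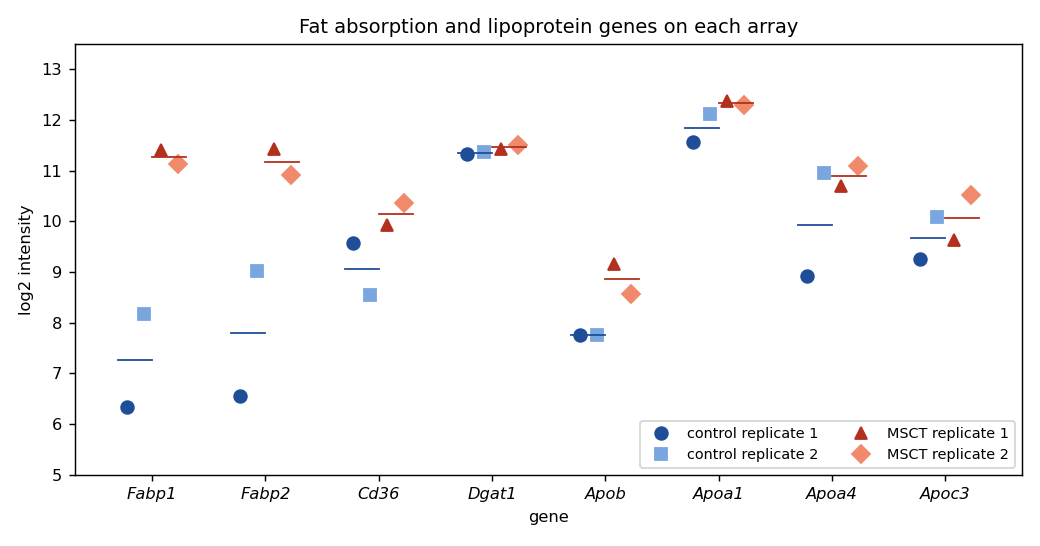
Log2 intensity of the 8 measured fat absorption and lipoprotein genes on each of the 4 arrays, with horizontal lines at the means of the control group (left) and the MSCT group (right), n = 2 each. Fabp1 and Fabp2 are far above both controls on the MSCT arrays, at 10.91 to 11.43, while control replicate 1 is the lowest array for every gene except Cd36.

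Fabp1 (NM_012556) codes for the liver-type fatty acid-binding protein, which is found in hepatocytes and in absorptive cells of the small intestine. The control rats had log2 intensities of 6.34 and 8.18, and the MSCT rats had 11.40 and 11.14. The groups did not overlap, and the control arrays were much further apart than the MSCT arrays. The expression of Fabp1 was 11.27 ± 0.18 (SD, n = 2) in the MSCT group versus 7.26 ± 1.30 (n = 2) in the control group, a difference of 4.01 (standard error 0.65). The gap of 1.83 between the control rats was exceeded in 284 of the 18350 measured transcripts. The MSCT mean was 4.93 above control replicate 1 and 3.09 above control replicate 2, so the size of the difference depended on the control rat, while its direction did not. On control replicate 1, 1.61% of all measured transcripts were lower than Fabp1, down to 5.24. The files give no detection call, so how far such dim values lie above background is not known, and the differences and gaps read from them are uncertain in size.

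Fabp2 (NM_013068), the intestinal fatty acid-binding protein and a marker of mature enterocytes, followed the same order. The control rats had log2 intensities of 6.56 and 9.02, and the MSCT rats had 11.43 and 10.91. Again the groups did not overlap, and control replicate 1 was the lowest array. The means were 11.17 ± 0.37 (SD, n = 2) in the MSCT group and 7.79 ± 1.74 (n = 2) in the control group, with a difference of 3.38 (standard error 0.86). Only 70 measured transcripts had a larger gap between the control arrays than the 2.46 of Fabp2. The MSCT mean was 2.15 above control replicate 2 and 4.61 above control replicate 1, where Fabp2 was likewise dim (2.59% of transcripts were lower). With the methods' t-test in place of limma, Fabp2 was no longer past the screen.

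Fabp1 and Fabp2 lie on different chromosomes, 4 and 2, and their profiles over the 4 arrays were close. After each gene was centered on its own mean, the Euclidean distance between them was 0.79 on the log2 scale, and 1 other named gene was closer to Fabp1. This was Cyp4f1, a cytochrome P450 of the fatty acid and eicosanoid hydroxylase family, at 0.23. For Cyp4f1, the control rats had log2 intensities of 7.45 and 9.20, and the MSCT rats had 12.69 and 12.13. The next named genes were Plet1 at 1.03, Hsd3b2 at 1.33, Mcpt1 (NM_172044, the symbol of the RefSeq table) at 1.40 and Gcnt3 at 1.40. Of these, Plet1 shared the low control replicate 1 (8.78, against 10.32 in control replicate 2), whereas the control arrays lay close together for Mcpt1 (6.70 and 6.65) and Gcnt3 (8.85 and 8.80). The fold of the row here named Mcpt1 was 21.28, a value that the study lists under Mcpt2. These distances rest on 4 arrays and contain the difference between the groups. That difference was known when Fabp1 and Fabp2 were chosen, so nothing can be read from their likeness.

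Cd36 (NM_031561) codes for a scavenger receptor that takes up long-chain fatty acids at the cell surface. The control rats had log2 intensities of 9.58 and 8.54, and the MSCT rats had 9.92 and 10.36. The groups did not overlap, and it was the only measured gene of the list with control replicate 1 above control replicate 2, by 1.03. The difference was 1.08 (standard error 0.42) and was not past the screen. With equal array medians, without the lower 25% of rows by intensity, with a variance that follows intensity (trend and robust options) or without control replicate 1, Cd36 was past it. The difference was 0.56 against control replicate 1 alone and 1.59 against control replicate 2 alone.

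Dgat1 (NM_053437), which codes for an enzyme of the last step of triglyceride synthesis, had the smallest difference of the 8 genes. The control rats had log2 intensities of 11.33 and 11.37 and the MSCT rats 11.42 and 11.51, a difference of 0.12 (standard error 0.18). Although the MSCT arrays were both above the control arrays, the difference was smaller than its standard error.

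Apob (NM_019287), the structural protein of chylomicrons and of very-low-density lipoprotein, was the listed gene with the most even controls. Both control rats had a log2 intensity of 7.76, and the MSCT rats had 9.16 and 8.57. The groups did not overlap, and here the spread lay between the MSCT rats. The difference was 1.11 (standard error 0.27). Without MSCT replicate 1 it was 0.81 and no longer past the screen, and by the methods' t-test it was not past it either.

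The listed apolipoproteins of the particle surface, Apoa1, Apoa4 and Apoc3, had smaller differences between the groups than Apob. For Apoa4 the shortfall was within its standard error. Apoa1 (NM_012738), the main protein of high-density lipoprotein, had log2 intensities of 11.56 and 12.13 in the control rats, against 12.38 and 12.30 in the MSCT rats, a difference of 0.50 (standard error 0.26). The groups did not overlap, but the MSCT mean was 0.22 above control replicate 2. Apoa4 (NM_012737), an apolipoprotein that the small intestine secretes after a fat meal, had 8.92 and 10.96 in the control rats, against 10.70 and 11.08 in the MSCT rats. These groups overlapped, since control replicate 2 lay between the MSCT arrays. The difference of 0.95 (standard error 0.72) came with a gap of 2.03 between the control rats, a gap exceeded in 187 measured transcripts, and the MSCT mean was 0.06 below control replicate 2 (-0.06). Apoc3 (NM_012501), an inhibitor of lipoprotein lipase, had 9.25 and 10.08 in the control rats, against 9.62 and 10.53 in the MSCT rats, a difference of 0.41 (standard error 0.45) with overlapping groups. Its MSCT mean was nearly equal to control replicate 2 (-0.00).

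Control replicate 1 was thus the lowest array for 7 of the 8 genes, as it was for 29.2% of all measured transcripts. All 8 were higher in the MSCT group and were chosen with the group values known. A control array was therefore likely to be the lowest, and nothing can be read from the count. The median absolute gap between the control arrays was 0.93 for the 8 genes and 0.31 over all measured transcripts, or 0.28 over the transcripts within the range of mean intensity of the 8 genes. Between the MSCT arrays it was 0.41 for the 8 genes and 0.24 over all transcripts. Set against control replicate 1 alone, the MSCT mean was higher for all 8 genes (median 0.96), and against control replicate 2 alone for 6 of 8 (median 0.66). Over all measured transcripts, these medians were -0.02 and -0.04. The genes were chosen with such differences known, so nothing can be read from the contrast. The differences of Fabp1, Fabp2, Cd36 and Apob exceeded 1 against control replicate 2 alone, and those of Apoa1, Apoa4, Apoc3 and Dgat1 did not.

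**Figure D2:**
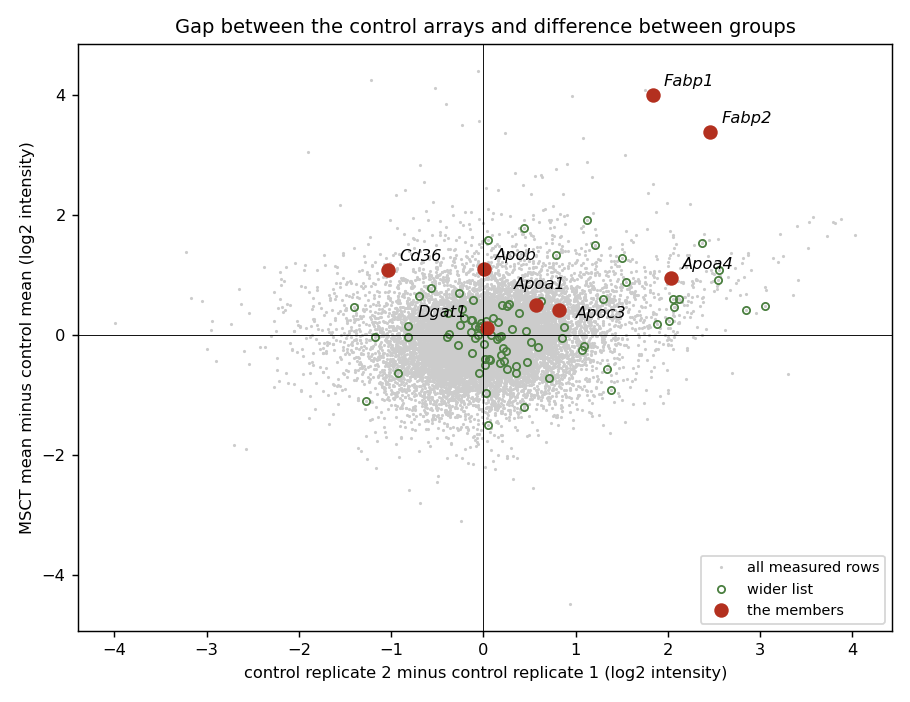
Difference between the groups (MSCT mean minus control mean, vertical axis) against the gap between the control rats (replicate 2 minus replicate 1, horizontal axis), both in log2 intensity, for all 18350 measured transcripts (grey), 87 further lipid genes (open circles) and the 8 listed genes (filled). Fabp1, Fabp2 and Apoa4 lie on the right with gaps of 1.83, 2.46 and 2.03, Apob and Dgat1 near a gap of 0, and Cd36 on the left.

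The low values of control replicate 1 extended to further apolipoprotein genes. Grouping the apolipoproteins of the list with those of a wider list of lipid genes, a choice made after their values were seen, gave 12 measured genes of 13, with Apoc4 left out for want of a row. In 7 of the 12 (58.3%), control replicate 2 was more than 2-fold above control replicate 1, and in 0 of 12 the opposite held. Over all measured transcripts these shares were 5.43% and 3.30%, and over the transcripts in the intensity range of the 8 listed genes 3.25% and 1.31%. Of the 7, Apoa2 (mean 7.56) and Apod (mean 8.01) lay below this range, which starts at 8.31. Apoc2, the activator of lipoprotein lipase, had log2 intensities of 7.73 and 10.78 in the control rats, against 9.64 and 9.83 in the MSCT rats, so control replicate 2 was the highest array. Apoa2, a second protein of high-density lipoprotein, had 5.74 and 8.30 against 7.81 and 8.40, and Apoc1 had 8.66 and 11.03 against 11.71 and 11.06. On control replicate 1 only 0.256% of measured transcripts were lower than Apoa2, so the size of its gap is uncertain. Apoe (12.08 and 12.13 against 12.03 and 12.43) and Apom (9.19 and 9.11 against 9.43 and 9.16) showed no such gap.

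By group means, all 12 apolipoproteins were higher in the MSCT group (median 0.76), where 8809 of the 18350 measured transcripts and 3882 of the 6963 named genes were. Apoa1, Apoa4, Apob and Apoc3 had been chosen with these values known, so nothing can be read from the count. Apob alone was past the screen. Against control replicate 1 alone, the MSCT mean was higher for 12 of 12 (median 1.81), and against control replicate 2 alone for 6 of 12 (median 0.05). Apoa1, Apoc3, Apoa4 and Apoa5 are neighboring protein-coding genes in this order on chromosome 8 in the RefSeq table. Along the cluster the difference between the groups was 0.50, 0.41, 0.95 and 0.92, and the gap between the control rats was 0.57, 0.82, 2.03 and 2.54. The differences carried standard errors of 0.26, 0.45, 0.72 and 0.87, and against control replicate 2 alone they were 0.22, -0.00, -0.06 and -0.35. An order among the 4 genes was therefore not shown.

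**Figure D3:**
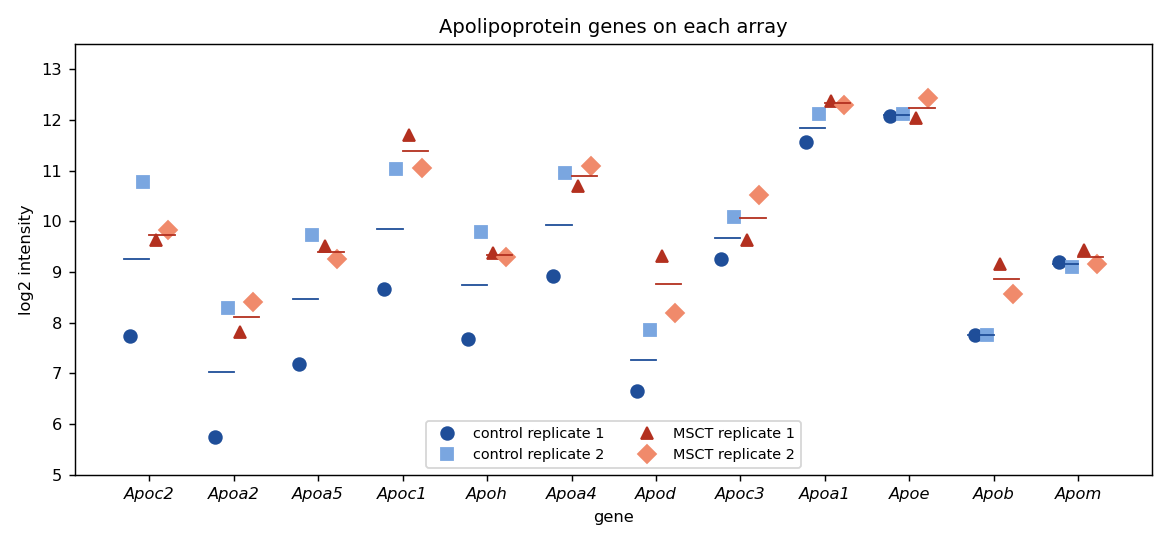
Log2 intensity of 12 apolipoprotein genes on each of the 4 arrays, ordered by the gap between the control rats, with horizontal lines at the group means (n = 2 each). For the 7 genes on the left, control replicate 1 is more than 2-fold below control replicate 2, whereas Apoe, Apob and Apom on the right have controls close together.

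Other tissues that make these proteins were examined through marker genes. Of 12 hepatocyte markers, all were measured, and in 7 (58.3%) control replicate 2 was more than 2-fold above control replicate 1 (median gap 1.17). Their summed intensity was 10208 and 14394 in the control rats, compared with 11608 and 13721 in the MSCT rats, with a median difference between the groups of 0.10, and 0 of 12 were past the screen in either direction. The gap was seen in Ttr (8.15 and 9.90 in the control rats), Cps1 (8.05 and 9.53) and Hpx (8.96 and 10.76), but not in Alb, the defining secreted protein of hepatocytes (11.58 and 11.36), or in Tf (11.67 and 11.77). The part of liver-type transcripts in the values of Fabp1 and the apolipoproteins was not tested.

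Krt19 (14.69 to 15.09 over the 4 arrays), Slc26a3 (14.61 to 14.99) and Car4 (13.77 to 14.26), which mark gut epithelium and colonocytes, were bright on every array. Only tissue labeled as colon was measured, so these values do not tell it from other gut segments. Of the 8 measured colonocyte markers, 3 were higher on both MSCT arrays than on both control arrays and 2 were lower. Over all 18350 measured transcripts, 3916 were higher in this way and 4488 lower. The 3 higher markers were Car4, Slc26a3 and Slc9a3 (12.81 and 13.58 against 14.09 and 13.65). The 2 lower markers were Aqp8 (11.72 and 11.91 against 11.39 and 11.64) and Ceacam1 (12.32 and 12.26 against 11.50 and 11.92). The median difference was 0.18 for 10 measured markers of gut epithelium of 12, and 0.22 for 8 of 12 of colonocytes. The summed intensity of the colonocyte markers was 74120 and 77246 in the control rats, compared with 92790 and 86020 in the MSCT rats. For gut epithelium it was 159145 and 159479 in the control rats, compared with 176841 and 170839 in the MSCT rats. Of these genes Tff3, a secreted goblet cell peptide, was past the screen on the higher side (9.67 and 9.16 against 10.88 and 10.94, a difference of 1.49 with a standard error of 0.25), while Cdx2, a transcription factor of the gut, was not (10.18 and 10.44 against 11.13 and 10.46). Of 14 markers of small intestinal enterocytes, 9 were measured, and their median difference was 0.15. Their summed intensity was lower in the MSCT rats, at 12060 and 13402, than in the control rats, at 15900 and 16778. Most of this sum came from the brightest genes, Dpp4, Slc5a1 and Slc15a1, which were lower in the MSCT group by group means. The sum therefore does not describe the dimmer markers. Of the 9 markers, 5 were higher in the MSCT group by group means and 4 lower. Among these, Alpi, the intestinal alkaline phosphatase of the brush border, was past the screen with 8.53 and 9.36 against 10.57 and 10.10, a difference of 1.39 (standard error 0.37), whereas Dpp4, a brush border peptidase, was lower in the MSCT group by less than 2-fold (12.25 and 12.66 against 11.52 and 11.50). The glucose transporter Slc2a2 shared the low control replicate 1 (7.67 and 9.87 against 10.02 and 9.79). Sis, Lct, Mgam and Treh, the disaccharidases that define the small intestine, had no row under their names.

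Markers of other cell types showed the following. Of 8 adipocyte markers 4 were measured, with a median difference of -0.03, and the defining Adipoq, Lep and Retn were blank. Cfd had 10.40 and 9.72 against 8.80 and 9.62, and Cidec had 9.72 and 9.86 against 10.43 and 9.97. Of 9 markers of exocrine pancreas 2 were measured, Prss1 (7.44 and 7.63 against 7.89 and 6.19) and Cela1 (10.44 and 10.41 against 11.37 and 12.40), which was past the screen on the higher side with a difference of 1.46 (standard error 0.39), and the other 7 were blank. Of 9 macrophage markers 5 were measured, with a median difference of 0.88, and Cd68 (10.00 and 10.16 against 11.22 and 11.52) and Csf1r (10.26 and 10.17 against 11.19 and 11.25) were past the screen on the higher side. Cd14 overlapped between the groups (13.18 and 13.40 against 13.13 and 13.37). The median difference was 0.02 for 5 of 9 smooth muscle markers (Acta2 14.90 to 15.34 over the arrays) and 0.05 for 3 of 7 endothelial markers (Esam 11.70 to 11.79, Pecam1 9.52 to 10.30). Macrophages also take up lipid through Cd36, and the part of these markers in the value of Cd36 was not tested.

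The rest of the pathway was followed in a wider list of 135 genes of fat digestion, absorption, lipoprotein and bile acid metabolism, none of them among the 10. Of these, 87 were measured, 14 were blank and 34 had no row by name. The screen was passed by 4 genes on the higher side (4.60%, against 2.12% of all measured transcripts and 3.13% of the 6963 named genes) and by 2 on the lower side (2.30%, against 2.51% and 1.78%). By the methods' t-test it was passed by 2 on the higher side (Soat1 and Dgat2) and 1 on the lower side (Lipg), against 1.04% and 1.07% of all measured transcripts. By limma with Benjamini-Hochberg adjustment over all 18350 transcripts, 0 of the 87 had an adjusted p under 0.05, while 6 were higher and 6 lower at an unadjusted p under 0.05. At this unadjusted limit, 880 of the 18350 measured transcripts were higher and 1316 lower, and of the 6963 named genes 475 and 379. By group means, 49 of the 87 were higher and 38 lower in the MSCT group, with a median difference of 0.13. Over all measured transcripts 8809 were higher and 9541 lower, and over the named genes 3882 and 3081.

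Of these further genes, Soat1 and Dgat2 had MSCT arrays well above both controls. The gap between the control rats was 0.05 for Soat1 and 0.45 for Dgat2, against a median absolute gap of 0.31 over all measured transcripts. Soat1, which esterifies cholesterol in the endoplasmic reticulum, had log2 intensities of 8.67 and 8.71 in the control rats, against 10.23 and 10.32 in the MSCT rats. Its difference of 1.59 (standard error 0.18) had an adjusted p of 0.257 by limma, a value shared with other transcripts and lower for none. Dgat2, which codes for the other diacylglycerol acyltransferase, had 8.64 and 9.09 against 10.90 and 10.41, a difference of 1.79 (standard error 0.29, limma adjusted p 0.26). In contrast to Dgat1, for which the group means differed by 0.12, the groups were well apart for Dgat2. Slc27a2, a very-long-chain acyl-CoA synthetase that also takes part in fatty acid uptake, had 6.71 and 7.84 against 9.56 and 8.83, a difference of 1.91 (standard error 0.49, limma adjusted p 0.324), and was not past the screen by the methods' t-test. Angptl4, a secreted inhibitor of lipoprotein lipase, had 5.91 and 6.70 against 7.38 and 7.90, a difference of 1.33 (standard error 0.37, limma adjusted p 0.338). Only 4.42% of measured transcripts had a lower mean than Angptl4, so the size of its difference is uncertain. Angptl4 was not past the screen by the methods' t-test, without control replicate 1 or without MSCT replicate 2.

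Lower in the MSCT group and past the screen were Lipg and Cyp27a1. Lipg, the endothelial lipase that acts on high-density lipoprotein, had log2 intensities of 9.86 and 9.91 in the control rats, against 8.54 and 8.21 in the MSCT rats. The difference was -1.51 (standard error 0.21, limma adjusted p 0.26), and the groups did not overlap. Cyp27a1, a sterol hydroxylase of bile acid synthesis, had 10.18 and 10.63 against 8.70 and 9.71, a difference of -1.20 (standard error 0.41, limma adjusted p 0.393). Leaving out either control array or MSCT replicate 1, or using the methods' t-test, took Cyp27a1 out of the screen.

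By role, the median difference was 0.07 over 11 measured genes of uptake and activation (from Slc27a2 down to Acsl4 at -0.57), 0.22 over 7 other lipid-binding proteins (from Fabp7 at 1.28 to Fabp4 at -0.04) and -0.03 over 13 genes of triglyceride and cholesteryl ester synthesis and storage (from Dgat2 to Lpin3 at -0.48). Fabp7 was dim, with 1.85% of measured transcripts lower in mean, so the size of its difference is uncertain. Among 13 other genes of apolipoproteins and chylomicron assembly, 12 were higher by group means (median 0.37), from Apoc1 at 1.54 to Sar1b, a small GTPase of chylomicron export, at -0.07, and 0 were past the screen. For comparison, 8809 of the 18350 measured transcripts and 3882 of the 6963 named genes were higher by group means. Among 3 measured genes of luminal digestion the values ran from Pnliprp2 at -0.63 to Cel at 0.47, and the median of 13 lipases, receptors and sterol exporters was -0.00. Of 8 bile acid genes (median 0.17, highest Slc10a1 at 0.88), 5 had control replicate 2 more than 2-fold above control replicate 1. Over all measured transcripts this share was 5.43%. These 5 genes were dim, with means from 7.28 (Nr0b2) to 8.26 (Abcc2), so the size of their gaps is uncertain. Of 19 transcription factors of enterocyte lipid genes, 6 were higher and 13 lower (median -0.20). The highest of them was Pparg, a receptor for fatty acids, at 0.58 (11.05 and 10.93 against 11.66 and 11.47), and the lowest Srebf2, the activator of cholesterol synthesis, at -0.97 (11.19 and 11.22 against 10.21 and 10.27). Hnf4a, which drives many enterocyte genes, had 13.73 and 13.60 against 13.40 and 13.32, a difference of -0.30 (standard error 0.19), and was picked after its values were seen.

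**Figure D4:**
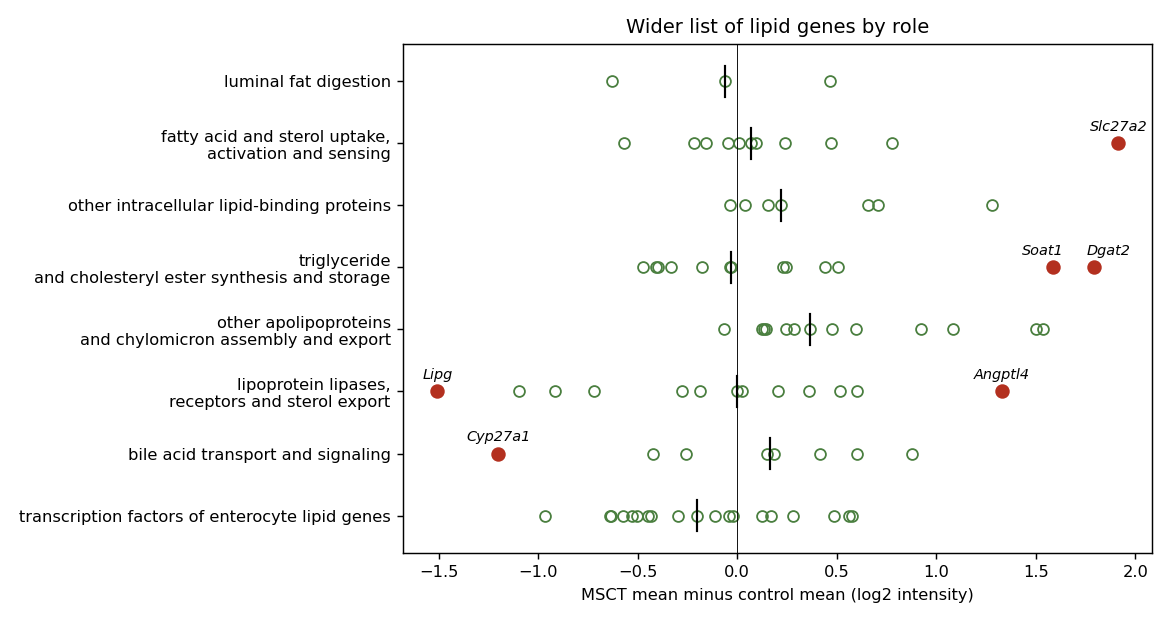
Difference between the groups (MSCT mean minus control mean, log2 intensity) for the 87 measured genes of the wider list, 1 circle per gene, in 8 roles, with a vertical bar at each role's median. Filled circles are the 6 genes past the screen, with Slc27a2, Dgat2, Soat1 and Angptl4 on the right and Lipg and Cyp27a1 on the left.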

How the data were processed

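Colon RNA of 4 rats (2 control, 2 MSCT) was measured with Cy3 on one-color NimbleGen arrays. The authors scanned them, extracted the data with NimbleScan and deposited 1 linear intensity per RefSeq transcript and array. The submitters' processing notes name RMA without a role or version, and the rule behind blank rows is not given in the sources used here. The table has 26420 rows, of which 18350 are filled on every array and 8070 are blank on every array. The array medians lay within 0.07 on the log2 scale, and 0 value columns lacked a sample. With 2 rats per group, precision is limited by the number of arrays.

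Intensities were taken as log2 values, and no pseudocount, scaling or filter was applied. limma 3.58.1 (lmFit and eBayes, R 4.3.3) compared MSCT with control over all rows, with Benjamini-Hochberg adjustment. The screen (unadjusted p under 0.05 and more than 2-fold) follows the study. One-way analysis of variance, which the study names for its statistics, is for 2 groups the methods' t-test and was an alternative. Standard errors are limma's and, with 2 rats per group, rest on a variance shared across rows. The fit was checked on simulated data. Rows were named through the RefSeq table of GRCr8 (7062 measured rows, 38.5%), keeping for each gene the row of highest mean. Python 3.11.15, pandas 2.3.3 and matplotlib 3.10.9 were used for lists and figures.

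The 10 genes and the other lists were chosen with earlier results of these data known. Named are the 10 genes, wider-list genes past the screen, the highest and lowest gene of each role, the brightest and the first measured gene of marker lists, and the 5 named genes nearest to Fabp1. Other named genes were chosen after their values were seen. No set test was run. A comparison of protein sequences was planned and not run, because no protein table was used here.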

Additional observations from a re-analysis of the deposited data

How the results depend on the processing

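The 3 listed genes past the screen, and the 4 higher and 2 lower genes of the wider list, were recounted under each alternative. Counts more than 1.5 times away arose in 4 kinds of alternative. Without the lower 50% of rows by intensity they were 0, 1 and 1, where Fabp1, Fabp2, Apob and Cd36 were not tested and 42 of the 87 wider-list genes were. By the methods' t-test they were 1 (Fabp1), 2 and 1, with 0 past an adjusted p of 0.05. With a 1.5-fold limit 5 wider-list genes were lower. Leaving out 1 array, with the lone sample assumed to vary like the other group, gave 2 to 4 listed genes, 4 to 18 higher and 2 to 5 lower. The 18 arose without control replicate 2 and included 6 apolipoproteins, when 4.91% of all rows were past the screen on the higher side, and the 5 without control replicate 1. With the replicate block the counts were 3, 5 and 3. The shared replicate numbers do not establish pairs (correlation of replicate deviations 0.234 across rows). With trend and robust options the counts were 4, 5 and 3, and 387 rows had an adjusted p under 0.05, among them 2 listed genes (Fabp1 and Fabp2) and 4 of the wider list. That number of rows was 247 without the lower 50% of rows, 4 without the lower 25%, and 0 in the fit as reported. Without control replicate 1 the differences of Apoa4 (-0.06) and Apoc3 (-0.00) changed sign, as did Apoc3 without MSCT replicate 2 (-0.04). Without control replicate 1 a difference is the MSCT mean minus control replicate 2, so these changes of sign restate the gaps within the groups. Why the arrays of a group differed was not tested. The other 65 recomputed differences of listed genes kept their sign. Leaving out 1 array moves a difference by an amount set by the gap within its group, so the size of those moves shows nothing further. Taking another row per gene changed nothing for the listed and wider-list genes, which had 1 row each. Of the marker genes, Ceacam1, Slc15a1 and Fga had several, with opposite signs for Fga (0.07 and -0.35).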
